A study of Mus musculus with 30 samples.

Results

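Macrophage and leukocyte marker genes were followed from cultured mouse embryonic fibroblasts (MEFs) into tumours. The list holds 34 genes. A probe was assigned to a gene when the gene's current or older symbol was the probe's target name, and each gene was represented by the detected probe with the highest mean. A probe counted as detected when its detection p was under 0.01 on at least 3 of the 30 arrays. By this rule 31 of the 34 genes were kept, among 13870 genes measured. The level of expression was read on Illumina bead arrays as a normalized log2 intensity, so a difference of 1 is a doubling. Levels of different genes come from different probes and were not compared with each other.

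The samples formed 6 groups of 3 replicates. Smchd1 null MEFs carry the MommeD1 point mutation on the FVB/N background and wildtype MEFs are FVB/N. Primary MEFs had been passaged 2 to 3 times. Transformed MEFs of both genotypes carry a p53 knockdown and overexpressed HRasV12, and were harvested 2 weeks after transformation. Tumours grew from transformed MEFs of either genotype in nude mice, which keep macrophages and other myeloid cells but lack a thymus and hence mature T cells. The genotype of a tumour is that of the injected cells, and the host is not described as Smchd1 null. Recipients 4 to 6 bore null tumours and recipients 1 to 3 wildtype tumours. Each recipient had 3 arrays, whose mean was its value. Whether replicate cultures came from different embryos is not given in the labels. The p-values therefore reflect how these samples varied, and that variation may be technical.

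A MEF culture is made from a whole embryo and can therefore hold other embryonic cells, among them macrophages of the yolk sac and fetal liver. Macrophages depend on the receptor Csf1r and its ligands Csf1 and Il34, and on the transcription factor PU.1, the product of Spi1 (named Sfpi1 in the files), which binds purine-rich sites in the promoters of myeloid genes. In tumours, host macrophages are a common part of the stroma. In RNA from a whole sample, fewer cells of a type and less RNA per cell cannot be told apart.

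Smchd1 itself checked the genotype labels. Its log2 level was 7.18, 7.35 and 7.24 in null primary MEFs, against 9.58, 9.61 and 9.55 in wildtype ones, and 7.33, 7.24 and 7.32 in null transformed MEFs, against 9.42, 9.28 and 9.58 in wildtype ones. Null tumours had 8.01, 8.14 and 8.25 and wildtype tumours 9.16, 9.46 and 9.33, so no value of a null group reached its wildtype group at any stage. The 12 listed fibroblast markers were all kept, with a mean level of 10.98 to 11.65 in the culture replicates. The markers that define all leukocytes were not all seen: Ptprc (CD45), the pan-leukocyte phosphatase, was detected on no array by any of its 3 probes, the highest of which had a mean of 6.13. The Fc receptor gamma chain Fcer1g and the scavenger receptor Msr1 were also detected on no array, each by its only probe. Itgam (CD11b), an integrin of myeloid cells, was detected on 3 arrays and Itgb2, its partner chain, on 6.

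Most of the kept genes were well above background in primary MEFs, at or near it in transformed MEFs and above it again in tumours, in both genotypes. The exceptions were Cd163, which was at background in primary MEFs too, Itgam and Itgb2, which were at or near background in primary MEFs, Ctss, which was low in both kinds of culture, and Cd14, which kept a clear level in transformed MEFs. Background on an array was the 95th percentile over its never-detected probes, and lay between 6.27 and 6.38. In null primary MEFs 27 of 31 genes were above it on all 3 arrays, and in wildtype primary MEFs 27 were. In transformed MEFs 3 of 31 were, the same number in null and wildtype cells. These were Cd68, Cd14 and the actin regulator Coro1a. In tumours 29 of 31 were above background on all 9 arrays of each genotype. Averaged over the 31 genes, the level was 9.37 ± 0.1 in null primary MEFs and 9.47 ± 0.14 in wildtype ones, 6.24 ± 0.03 in null and 6.23 ± 0.02 in wildtype transformed MEFs, and 9.79 ± 0.43 in null and 10.15 ± 0.4 in wildtype tumours (SD, n = 3 each).

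**Figure D1:**
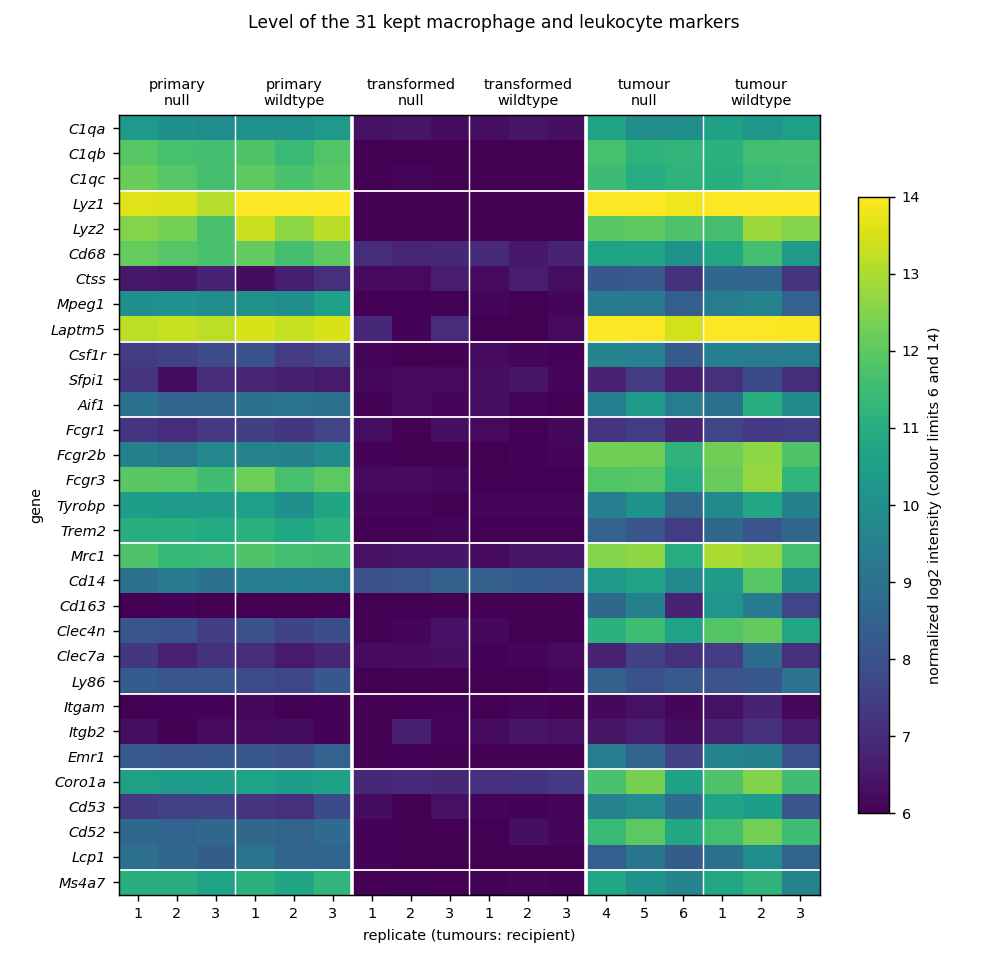
Normalized log2 intensity of each kept gene (rows, ordered by role) in each of the 18 replicates (columns, null left of wildtype within each stage; a tumour column is 1 recipient). The 12 culture columns split into bright primary and dark transformed ones, and the tumour columns are bright again, with Cd163 bright in tumours alone.

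The promoters of 24 of the 34 genes were in a RefSeq table (build GRCm38.p6), among them those of Fcer1g and Ptprc, which were detected on no array. The 250 bases before the start were searched on both strands for GAGGAA, the core of a PU.1 site, since most of the kept genes moved together. It was found in 14 of the 24 genes and in 25.9% of all 27025 genes with a promoter in the table. The longer motif GAGGAAGT, which contains the shorter one, was found in 1 of the 24, C1qc, and in 2.79% of all genes. A match is no evidence of binding. The promoters of 5 genes on which the results below turn are shown 5′ to 3′ in the direction of the gene, with GAGGAA or its reverse complement in capitals. They lie at chr4:136886201-136886450 (C1qb, minus strand), chr4:136892915-136893164 (C1qc, minus), chr4:130913066-130913315 (Laptm5, plus), chr17:48346151-48346400 (Trem2, plus) and chr10:117282273-117282522 (Lyz2, minus). The match lies 30 bases before the start in C1qb, 38 in Laptm5, 40 in Trem2 and 193 in C1qc, and Lyz2 has none in this window.
C1qb: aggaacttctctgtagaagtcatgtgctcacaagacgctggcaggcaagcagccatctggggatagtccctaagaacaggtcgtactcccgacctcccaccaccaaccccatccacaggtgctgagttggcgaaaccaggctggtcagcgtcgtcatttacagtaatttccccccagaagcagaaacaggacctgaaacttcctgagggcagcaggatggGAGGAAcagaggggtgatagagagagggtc
C1qc: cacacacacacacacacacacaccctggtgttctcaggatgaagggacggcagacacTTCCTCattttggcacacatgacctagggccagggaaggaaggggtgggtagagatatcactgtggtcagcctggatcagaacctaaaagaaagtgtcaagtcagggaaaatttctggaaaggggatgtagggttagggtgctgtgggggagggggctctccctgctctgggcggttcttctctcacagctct
Laptm5: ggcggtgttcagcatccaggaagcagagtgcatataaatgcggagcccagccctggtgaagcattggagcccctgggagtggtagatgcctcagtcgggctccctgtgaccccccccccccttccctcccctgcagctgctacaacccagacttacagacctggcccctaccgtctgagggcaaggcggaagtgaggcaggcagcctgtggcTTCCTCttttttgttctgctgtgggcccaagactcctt
Trem2: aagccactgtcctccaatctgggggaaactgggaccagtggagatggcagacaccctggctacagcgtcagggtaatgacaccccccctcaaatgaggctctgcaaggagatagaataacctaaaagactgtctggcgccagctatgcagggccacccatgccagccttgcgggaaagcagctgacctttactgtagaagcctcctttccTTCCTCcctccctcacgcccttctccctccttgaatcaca
Lyz2: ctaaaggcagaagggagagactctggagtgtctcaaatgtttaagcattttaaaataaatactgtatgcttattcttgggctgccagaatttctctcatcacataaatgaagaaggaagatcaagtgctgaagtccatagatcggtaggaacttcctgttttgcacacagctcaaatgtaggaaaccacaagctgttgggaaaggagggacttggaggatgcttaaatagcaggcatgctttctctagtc

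The first comparison asks what became of these genes when MEFs were transformed. The complement genes C1qa, C1qb and C1qc encode the chains of C1q, which starts the classical pathway and is made mainly by macrophages. C1qb read 5.91, 5.88 and 5.92 in null transformed MEFs, against 11.92, 11.68 and 11.61 in null primary MEFs. In wildtype cells it read 6.03, 5.99 and 5.94 in transformed MEFs, against 11.81, 11.42 and 11.83 in primary MEFs. Transformed cells were at background in all replicates, so the fall is a bound: at least 41.5-fold in null and at least 39.9-fold in wildtype cells (limma adjusted p = 6.19e-13 and 8.26e-13). C1qc fell at least 46.9-fold in null and at least 45.9-fold in wildtype cells, and C1qa by 3.71 ± 0.12 and 3.79 ± 0.12 on the log2 scale (SE, n = 3).

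Lysozyme is a bactericidal enzyme that macrophages secrete. The probe taken for Lyz1 has the older name LYZ, and both probes named LYZ1 were detected on no array, so it cannot be tied firmly to Lyz1 rather than its near copy Lyz2. It read 6, 6 and 5.95 in null transformed MEFs, against 13.6, 13.58 and 13.11 in null primary MEFs. Wildtype transformed MEFs gave 5.95, 6 and 6, against 14.43, 14.12 and 14.31 in wildtype primary MEFs. The fall was at least 134-fold in null and at least 242-fold in wildtype cells. Lyz2 read 5.95, 5.9 and 5.92 in null transformed MEFs, against 12.5, 12.33 and 11.69 in null primary MEFs, and 5.94, 5.97 and 5.97 in wildtype transformed MEFs, against 13.37, 12.64 and 13.17 in wildtype primary MEFs. That is at least 56.3-fold lower in null and at least 103-fold lower in wildtype transformed MEFs. Of the lysosomal genes, Laptm5, a lysosomal membrane protein of blood cells, fell at least 134-fold in wildtype cells and by 6.58 ± 0.19 in null cells, where 2 of 3 transformed arrays were above background. Cd68, a lysosomal glycoprotein of macrophages, differed by -4.98 ± 0.15 in null and -5.17 ± 0.15 in wildtype cells, a fall in both. Mpeg1, the pore protein perforin-2, fell at least 12.4-fold and at least 14.3-fold. The protease Ctss differed by -0.23 ± 0.19 in null and -0.28 ± 0.19 in wildtype cells, which passed no test.

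Among Fc receptors and their adaptors all 5 kept genes fell in both genotypes. Trem2, a lipid receptor of macrophages that signals through Tyrobp, read 5.92, 5.93 and 6.14 in null transformed MEFs, against 11.01, 11.01 and 10.9 in null primary MEFs. Wildtype transformed MEFs gave 5.91, 5.95 and 5.95, against 11.07, 10.78 and 11.11 in wildtype primary MEFs. No replicate came near those of the other stage, and the fall was at least 24.4-fold in null and at least 24.5-fold in wildtype cells. The activating IgG receptor Fcgr3 fell at least 43.3-fold in null and at least 48.3-fold in wildtype cells, and the inhibitory one, Fcgr2b, at least 8.74-fold and at least 9.54-fold. Fcgr1, the high-affinity IgG receptor, was nearer to background in primary MEFs and fell at least 1.78-fold and at least 2.16-fold.

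The receptor Csf1r read 6.11, 6.04 and 6.06 in null transformed MEFs, against 7.43, 7.54 and 7.83 in null primary MEFs. In wildtype it read 6.23, 6.13 and 6.07 in transformed MEFs, against 8.01, 7.42 and 7.68 in primary MEFs. The groups did not overlap, and the fall was at least 2.36-fold in null and at least 2.52-fold in wildtype cells. Sfpi1 fell in null cells (-0.63 ± 0.19, limma adjusted p = 0.0128) and differed by -0.44 ± 0.19 in wildtype cells, which was not called (adjusted p = 0.0726). Without null primary replicate 1 or 3 the null call was lost as well (adjusted p = 0.0639 and 0.0513), and the difference between the genotypes was not called. Emr1 (F4/80), the adhesion receptor used to recognise mouse macrophages, read 5.87, 6.08 and 5.98 in null transformed MEFs, against 8.25, 8.12 and 8.18 in null primary MEFs, and 5.94, 6 and 5.96 in wildtype transformed MEFs, against 8.18, 7.98 and 8.51 in wildtype primary MEFs. It fell at least 3.54-fold in null and at least 3.62-fold in wildtype cells. The mannose receptor Mrc1 read 6.35, 6.45 and 6.48 in null transformed MEFs, against 11.76, 11.36 and 11.42 in null primary MEFs. Wildtype transformed MEFs gave 6.22, 6.41 and 6.48, against 11.8, 11.57 and 11.54 in wildtype primary MEFs. Its fall of 5.09 ± 0.12 in null and 5.26 ± 0.12 in wildtype cells took it to the edge of background. Cd14, the co-receptor for endotoxin, kept a level of 8.18 ± 0.25 in null and 8.34 ± 0.09 in wildtype transformed MEFs (SD, n = 3) and fell by 0.9 ± 0.12 and 1.08 ± 0.12.

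Of the remaining genes, Ms4a7, a membrane protein of macrophages, fell at least 23.1-fold in null and at least 25.2-fold in wildtype cells. Among genes of all leukocytes, Coro1a fell by 3.55 ± 0.09 and 3.33 ± 0.09, and the actin-bundling protein Lcp1 at least 4.91-fold and at least 5.26-fold. The surface proteins Cd52 (at least 4.79-fold and at least 4.95-fold) and Cd53 (at least 2.21-fold and at least 2.01-fold) were lower as well. Aif1 (Iba1), an actin-binding protein of macrophages and microglia, fell at least 5.09-fold in null and at least 6.2-fold in wildtype cells by the probe taken. Its other detected probe fell less, from 8.16 to 6.62 in null and from 8.21 to 7.03 in wildtype cells, so these bounds hold for 1 probe only. Ly86 fell at least 3.57-fold and at least 2.94-fold, and Clec7a at least 1.63-fold and at least 1.37-fold by the probe taken. The other detected probe of Clec7a averaged only 6.13 in null and 6.06 in wildtype primary MEFs. It averaged 5.92 and 5.96 in transformed MEFs, so the Clec7a bounds too hold for 1 probe only.

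In all, limma called 27 of 31 genes lower in null and 26 in wildtype transformed MEFs and none higher, against 25.8% of all genes called lower in null and 25.6% in wildtype. The median log2 difference of the 31 was -2.65 in null and -2.86 in wildtype cells, against 0.04 and 0.02 over all genes. The replicates of 27 genes did not overlap in either genotype, all in the lower direction, where 28.1% of all genes did so in null and 29.6% in wildtype. A gene kept only because it was detected in primary MEFs or tumours had to be lower in cells at background, so this count describes the kept genes and supports nothing further. The genes not called in wildtype cells were Sfpi1, Ctss, Itgb2, Itgam and Cd163, of which the last 3 were above background on none of the wildtype primary arrays. Primary and transformed MEFs lay on 2 different chips, so stage and chip cannot be told apart here.

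**Figure D2:**
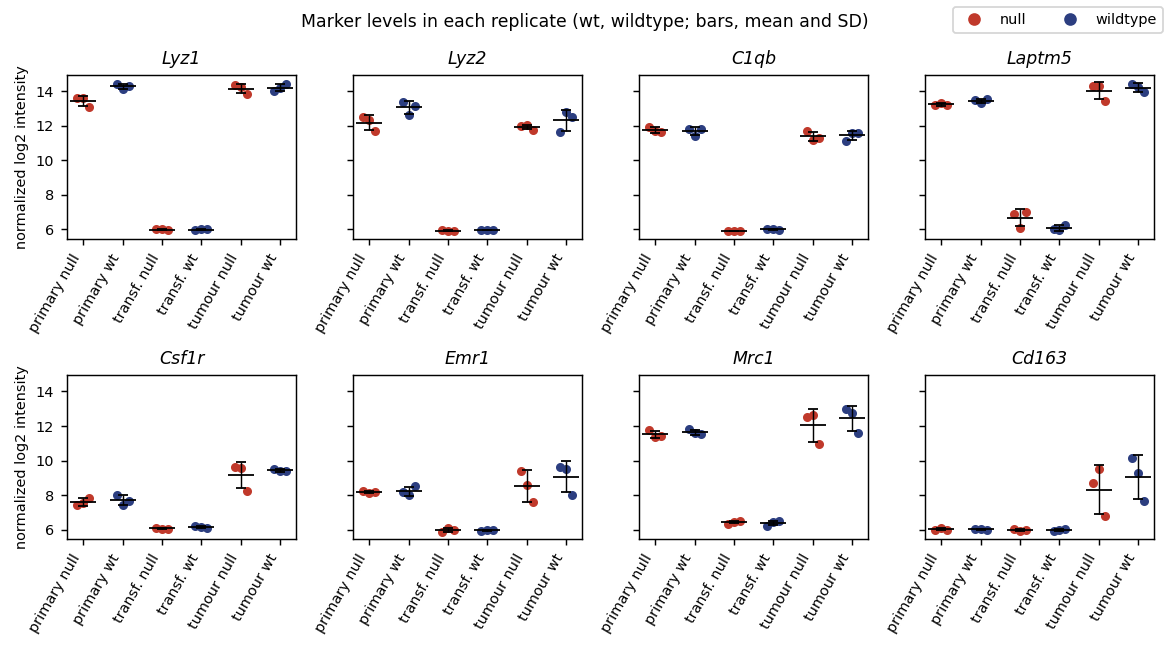
Log2 intensity of 8 markers (panels) in each replicate of each group (points, null red and wildtype blue; black bars, mean and SD, n = 3; wt, wildtype; transf., transformed). Lyz1 lay between 13.11 and 14.43 in primary MEFs, at 5.95 to 6 in transformed MEFs and between 13.84 and 14.41 in tumours, while Cd163 left background in tumours alone.

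The second comparison asks what the tumours held that the injected cells did not. Lyz1 read 14.34, 14.22 and 13.84 in the null tumours of recipients 4, 5 and 6 and 14.03, 14.2 and 14.41 in the wildtype tumours of recipients 1, 2 and 3. That was at least 219-fold higher than in null transformed MEFs and at least 229-fold higher than in wildtype ones (limma adjusted p = 8.82e-11 and 7.95e-11). C1qb read 11.68, 11.18 and 11.27 in null tumours, at least 32.4-fold above null transformed MEFs, and 11.11, 11.59 and 11.6 in wildtype tumours, at least 33.4-fold above wildtype transformed MEFs. C1qc read 11.49, 10.94 and 11.19 in null tumours and 11.06, 11.4 and 11.51 in wildtype tumours, at least 28.7-fold and at least 31-fold above the transformed MEFs of their genotype. No tumour value of these genes overlapped with a value of the transformed cells.

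Lyz2 read 11.96, 12.02 and 11.77 in null and 11.63, 12.8 and 12.53 in wildtype tumours, at least 47-fold and at least 62-fold higher than in transformed MEFs of the same genotype. Laptm5 rose at least 227-fold in wildtype tumours and by 7.36 ± 0.28 in null ones. Csf1r read 9.65, 9.56 and 8.26 in null tumours and 9.53, 9.39 and 9.37 in wildtype ones, at least 6.94-fold and at least 8.35-fold higher. The value of null recipient 6 was 1 log2 unit below all others. Mrc1 read 12.54, 12.66 and 10.95 in null and 12.99, 12.75 and 11.61 in wildtype tumours, a rise of 5.62 ± 0.43 and 6.08 ± 0.43. Emr1 read 9.4, 8.57 and 7.57 in null and 9.63, 9.53 and 8.02 in wildtype tumours, at least 4.44-fold and at least 6.46-fold higher. Recipients 6 and 3 were the lowest of their genotype for Csf1r, Mrc1 and Emr1 alike.

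Cd163, the haemoglobin scavenger receptor of tissue macrophages, read 8.68, 9.51 and 6.77 in null and 10.17, 9.29 and 7.68 in wildtype tumours, and was above background on all 9 arrays of each genotype and on none of the 12 culture arrays. It rose at least 3.89-fold in null and at least 6.4-fold in wildtype tumours over transformed MEFs by the probe taken, while its other probe was detected on no array. The null call was lost without recipient 4 (adjusted p = 0.0502), without recipient 5 (0.0569) and on the third tumour chip alone (0.0754). Limma called 28 of 31 genes higher in null and 29 in wildtype tumours and none lower, against 22.3% of all genes called higher in null and 19.2% in wildtype. The median rise of the 31 was 3.32 in null and 3.81 in wildtype, against -0.01 and -0.02 over all genes. Sfpi1 was called in both (0.73 ± 0.24 in null and 1.03 ± 0.24 in wildtype), but its null call was lost without tumour recipient 5 (adjusted p = 0.104) and without any one of the 3 null transformed replicates. Not called in either genotype were Itgam and Itgb2, and the beta-glucan receptor Clec7a was called in wildtype (1.66 ± 0.36) and not in null tumours (0.92 ± 0.36, adjusted p = 0.0564). Here too most of the kept genes were at background in one of the stages compared, and the count describes the kept genes only. Cd68, Cd14 and Coro1a were above background on all arrays of both stages. Tumours and transformed MEFs lay on different chips. Within each tumour chip alone, 26 to 27 of the 31 genes were called higher in null and 28 to 30 in wildtype tumours, where 15.7% to 22.2% of all genes were in null and 10.4% to 20% in wildtype.

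The third comparison sets the markers of tumours beside those of primary MEFs, both of which had them. Here the genes parted. In both genotypes 10 genes were called higher in tumours, 4 were called lower, and the rest were called in 1 genotype or in none. Called higher in both were Clec4n (Dectin-2), Cd52, Fcgr2b, Cd53, Cd163, Csf1r, Ctss, Cd14, Coro1a and Laptm5, and called lower in both were Trem2, Cd68, Mpeg1 and C1qc. Some of these calls rested on single replicates. In null, Coro1a lost its call in 9 of 16 alternatives, among them leaving out any 1 primary replicate, recipient 4 or recipient 5. Cd14 in null lost it in 6, among them without primary replicate 1 or 3 or recipient 4 or 5, and Ctss in null in 5, among them without primary replicate 2 or recipient 4 or 5. Laptm5 lost it in 2 in null, one of them without recipient 4, and in 4 in wildtype, among them without primary replicate 2 or recipient 1. Mpeg1 lost it in 3 in each genotype, among them without recipient 6 in null (adjusted p = 0.0535) and without primary replicate 3 in wildtype (0.053). Limma called 11 of 31 genes higher and 5 lower in null tumours, where 27.8% of all genes were higher and 28% lower. In wildtype tumours it called 11 higher and 4 lower, where 25.6% of all genes were higher and 26.3% lower. The shares of the markers, 51.6% called in null and 48.4% in wildtype, were near those of all genes, 55.9% and 51.9%.

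The genes called higher included a lectin, a leukocyte surface antigen and an IgG receptor. Clec4n, which recognises fungal mannans, read 11.11, 11.53 and 10.65 in null tumours, against 8.14, 8.02 and 7.45 in null primary MEFs. It read 11.86, 12.07 and 10.8 in wildtype tumours, against 7.99, 7.61 and 7.92 in wildtype primary MEFs. The difference was 3.23 ± 0.33 in null and 3.74 ± 0.33 in wildtype (limma adjusted p = 1.1e-05 and 3.8e-06), with no overlap. Cd52, a small glycoprotein of leukocytes, read 11.41, 11.99 and 10.84 in null tumours, against 8.66, 8.51 and 8.69 in null primary MEFs, a difference of 2.79 ± 0.27. In wildtype it read 11.58, 12.31 and 11.53 in tumours, against 8.67, 8.55 and 8.81 in primary MEFs, a difference of 3.13 ± 0.27. Fcgr2b differed by 2.43 ± 0.29 in null and 2.62 ± 0.29 in wildtype, while the activating receptors Fcgr3 (-0.24 ± 0.35 and 0.09 ± 0.35) and Fcgr1 (-0.06 ± 0.18 and 0.02 ± 0.18) were not called. Csf1r was 1.56 ± 0.31 higher in null and 1.73 ± 0.31 higher in wildtype tumours. Cd163 was at least 4.08-fold and at least 6.76-fold higher in tumours, being below background in primary MEFs. Its null call was lost on the third tumour chip alone.

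Trem2 went the other way. It read 8.54, 8.12 and 7.38 in null tumours, against 11.01, 11.01 and 10.9 in null primary MEFs, and 8.69, 8.11 and 8.63 in wildtype tumours, against 11.07, 10.78 and 11.11 in wildtype primary MEFs. The difference was -2.96 ± 0.26 in null and -2.51 ± 0.26 in wildtype (limma adjusted p = 3.38e-06 and 1.37e-05), and every tumour was below every primary culture. Its partner Tyrobp differed by -1 ± 0.36 in null, which was called, and by -0.36 ± 0.36 in wildtype, which was not. The null call was lost in 8 of 16 alternatives, among them without any 1 primary replicate (adjusted p = 0.0662 to 0.0834), without recipient 4 (0.0697) and without recipient 6 (-0.67, 0.123). Cd68 was lower in tumours as well (-1.46 ± 0.29 in null and -1.03 ± 0.29 in wildtype). So were Mpeg1 (-0.99 ± 0.3 and -1.05 ± 0.3) and C1qc (-0.71 ± 0.19 and -0.57 ± 0.19). The C1qc call in null was lost on the second tumour chip alone (-0.12) and in the values as deposited (-0.22), and that in wildtype in 7 of 16 alternatives, among them leaving out primary replicate 1 (adjusted p = 0.0943), primary replicate 3 (0.0808) or recipient 1 (0.109). The other C1q chains were not called, with C1qb at -0.36 ± 0.19 and -0.25 ± 0.19 and C1qa at 0.11 ± 0.2 and 0.3 ± 0.2. Lyz1 was higher in null tumours (0.7 ± 0.19, adjusted p = 0.00739) and differed by -0.07 ± 0.19 in wildtype. The test of the difference between the genotypes did not call Lyz1, Tyrobp or Itgb2, which was called higher in wildtype alone.

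The direction of the smaller differences depends on the scaling. With the values as deposited, in which each stage had its own distribution, all genes were shifted upward in tumours by a median of 0.35 in either genotype, and the split of calls was 14 higher and 2 lower in null and 19 higher and 1 lower in wildtype. Of all genes 43% were then higher and 17.9% lower in null, and 42.1% higher and 16.4% lower in wildtype. Trem2 was lower under that scaling as well (-2.52 and -2.06), and Cd68 in null tumours (-0.97), whereas the calls of Mpeg1, C1qc and Tyrobp were lost, as was that of Cd68 in wildtype tumours. Each chip of the tumours gave its own split: 9 to 10 higher and 2 to 5 lower in null, and 9 to 12 higher and 1 to 7 lower in wildtype. Of all genes 21.7% to 27.2% were higher and 23.3% to 26.5% lower in null on single chips, and 16.6% to 24.4% higher and 20.2% to 25.5% lower in wildtype. Other detected probes of the same gene differed in the same direction for Aif1, Cd52, Clec7a, Coro1a, Csf1r, Fcgr2b and Mpeg1. The size was not the same for Clec7a, whose probe taken differed by 0.11 in null and 0.96 in wildtype. Its other probe differed by 1.3 and 2.02. The direction was not shared for Lyz2, whose LYZ2 probe differed by -0.26 in null and -0.74 in wildtype but whose LYZS probe differed by 2.01 and 1.13. Nor was it for Emr1, where the second probe differed by -0.13 in null and 0.49 in wildtype and the third by -0.76 and -0.58. The second probe of Ms4a7 also went the other way, by 0.08 and 0.36. The stages lay on different chips, so stage and chip cannot be told apart.

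**Figure D3:**
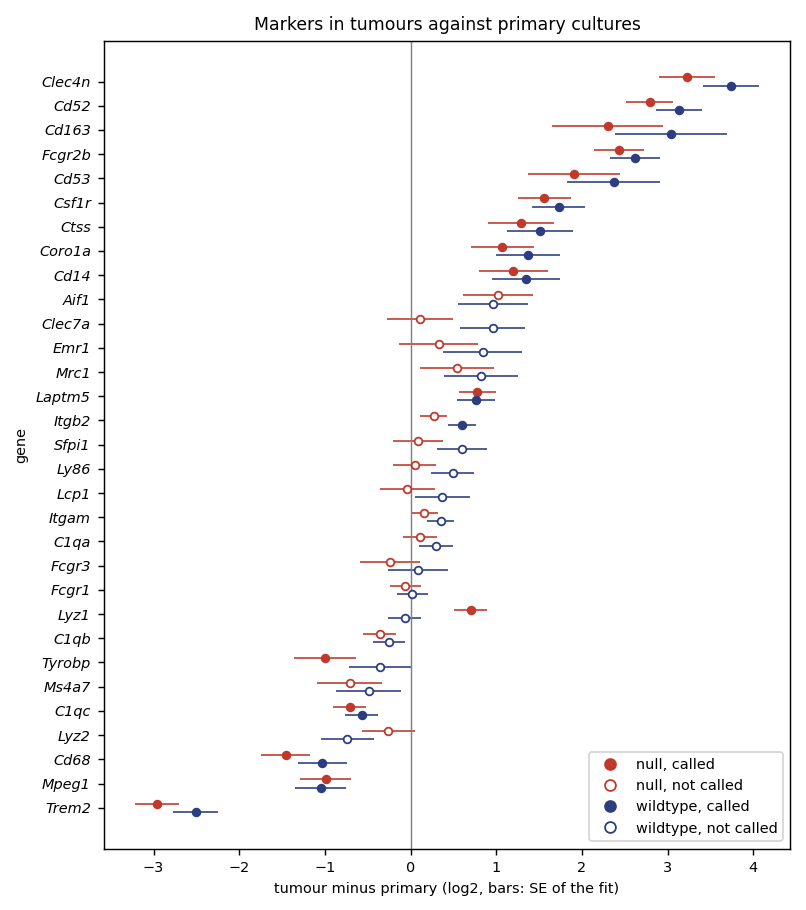
Difference in log2 intensity between tumours and primary MEFs for each of the 31 genes (points, null red above wildtype blue; bars, SE of the fit; filled points passed limma's adjusted p of 0.05). The values run from Clec4n, at 3.23 in null and 3.74 in wildtype, to Trem2, at -2.96 and -2.51. The gap between genotypes is widest for Clec7a, at 0.11 and 0.96, and Lyz1, at 0.7 and -0.07. Neither gap was called, while Lyz1 itself was called higher in null tumours.

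The comparison of genotypes asks whether these genes depend on Smchd1. In primary MEFs Lyz1 read 13.6, 13.58 and 13.11 in null and 14.43, 14.12 and 14.31 in wildtype cultures, and every null culture was below every wildtype one. The difference was -0.86 ± 0.15, which limma did not call over all genes (adjusted p = 0.256). Lyz2 differed by -0.89 ± 0.24 (adjusted p = 0.613), with 12.5, 12.33 and 11.69 in null and 13.37, 12.64 and 13.17 in wildtype cultures, and its LYZS probe by -1.15. Cd14 read 8.96, 9.28 and 9 in null and 9.41, 9.44 and 9.4 in wildtype cultures (-0.34 ± 0.11, adjusted p = 0.725). Besides these 3 no gene had an unadjusted p under 0.05 and no other gene's groups stood apart, where 5.91% of all genes stood apart in this direction. None of the 31 was called, where 0.0505% of all genes were, and their median was -0.06 against -0.01 over all genes. A fit of all 6 groups called 1 of the 31, Lyz1, lower in null primary MEFs.

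In transformed MEFs limma called none of the 31 between genotypes (3 at an unadjusted p under 0.05), against 6.53% of all genes, and the median of the 31 was 0. The smallest p-values belonged to Fcgr3 (0.24 ± 0.07, adjusted p = 0.0933), Coro1a (-0.3 ± 0.09, 0.101) and Laptm5 (0.61 ± 0.23, 0.16). Fcgr3 read 6.23, 6.23 and 6.17 in null and 5.96, 5.99 and 5.96 in wildtype transformed MEFs, all below background. Coro1a read 6.93, 6.99 and 6.85 in null and 7.12, 7.18 and 7.36 in wildtype transformed MEFs, and the groups did not overlap. Laptm5 read 6.9, 6.09 and 7.02 in null, where replicates 1 and 3 were above background, and 6, 5.94 and 6.24 in wildtype transformed MEFs, where none was. Without null replicate 2, which was at background, Laptm5 was called higher in null transformed MEFs.

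In tumours every one of the 31 kept genes had a lower mean in null than in wildtype, from -0.73 for Cd163 to -0.06 for C1qb, with a median of -0.37 against 0 over all genes. Limma called none, and none of all 13870 genes (0%, with 313 of all genes at an unadjusted p under 0.05). None of the 31 had an unadjusted p under 0.05 and the groups of all 31 overlapped, where those of 6.68% of all genes did not. The smallest p-values were those of Fcgr1 (-0.37 ± 0.21), Itgb2 (-0.33 ± 0.19) and Trem2 (-0.47 ± 0.34), each with an adjusted p of 1 by limma. Fcgr1 read 7.23, 7.4 and 6.75 in null and 7.68, 7.36 and 7.45 in wildtype tumours, and Itgb2 read 6.42, 6.68 and 6.28 in null and 6.74, 7.07 and 6.57 in wildtype tumours. The 31 genes share the same 6 mice, so their common sign is not 31 separate results.

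The size of this shift differed between sets of mice and chips. Recipient 6 was the lowest null tumour for 26 of 31 genes and recipient 3 the lowest wildtype tumour for 22, and recipient 2 was the highest of all 6 for 17. In recipient 6 the 6 measured skeletal muscle genes summed to an intensity of 4717, against 878 and 2070 in the other null tumours and 774 to 1446 in the wildtype ones, and the part of this in the markers' levels was not tested. Without null recipient 6 the median was -0.11 with 22 of 31 negative, and without wildtype recipient 2 it was -0.14. Each of the 3 tumour chips carried 1 array of every recipient. The median genotype difference was -0.56 on the first chip and -0.71 on the third, with 31 and 29 of 31 genes negative, but 0.18 on the second, with 12 negative. A fit of all 18 tumour arrays with chip as a block and recipient as a random block called none of the 31 either.

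**Figure D4:**
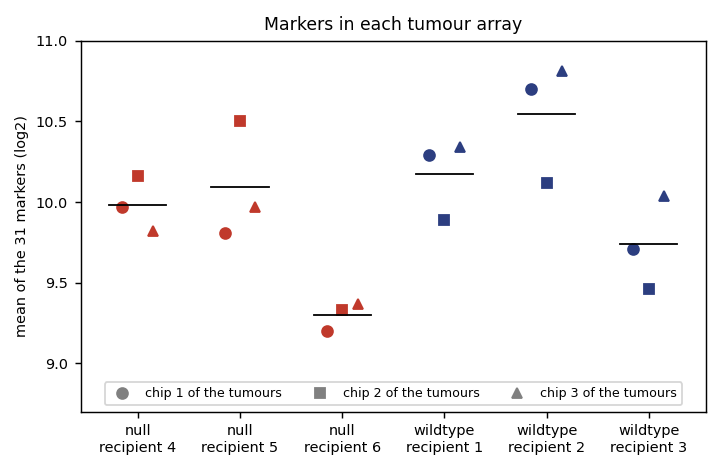
Mean log2 intensity of the 31 genes on each of the 18 tumour arrays (circle, square and triangle, chips 1, 2 and 3 of the tumours; lines, mean of a recipient; null red, left of wildtype blue). Recipient 6 has the lowest mean, 9.3, and recipient 2 the highest, 10.54, and the second chip lies below the other 2 in the 3 wildtype recipients but not in the null ones.

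A difference between the genotype differences was called for 1 of the 31 genes, Lyz1, between transformed and primary MEFs (0.86 ± 0.18, limma adjusted p = 0.0242), where 2.36% of all genes were called. The null minus wildtype difference was 0 in transformed MEFs, both groups being at background, and -0.86 in primary MEFs. It was lost when transformed replicates of null or wildtype cells were left out in 5 of 6 cases, without wildtype primary replicate 1 or 3, with no filter on dim probes (adjusted p = 0.0525) and in a fit of all 6 groups (0.182). Between tumours and transformed MEFs, and between tumours and primary MEFs, limma called none of the 31 and none of all genes (0% for both, with 890 and 484 of all genes at an unadjusted p under 0.05), with Lyz1 at 0.78 ± 0.26 in the last.

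In the recipient means of the tumours the 31 genes did not all vary together. Each gene was correlated with the mean of the other kept genes over the 6 recipients, which share tumour chips. The correlation was 0.981 for Fcgr3, 0.976 for Fcgr2b, 0.945 for Tyrobp and 0.932 for Cd68. It was 0.177, 0.118 and -0.0257 for C1qa, C1qb and C1qc, 0.348 and 0.409 for Lyz1 and Lyz2, and -0.389 for Ly86, the partner of a toll-like receptor homologue on leukocytes. The mean of the 3 C1q genes was 11.27, 10.69 and 10.82 in null recipients 4, 5 and 6 and 10.92, 11.07 and 11.21 in wildtype recipients 1, 2 and 3. The pan-leukocyte genes had means of 10.27, 10.83 and 9.64 in the same null recipients and 10.74, 11.28 and 9.94 in the wildtype ones, so that recipients 6 and 3 were lowest of their genotype for the pan-leukocyte genes, while recipient 3 was highest of its genotype for C1q. Its rank for C1q rests on its array on the third tumour chip, where C1qa, C1qb and C1qc read 11.25, 12.17 and 12.57. On the second they read 9.7, 11 and 10.43. For these 3 genes the mean SD between arrays of a recipient was 0.37, 0.46 and 0.63. Between recipients of a genotype it was 0.29, 0.27 and 0.26. For Lyz2 these SDs were 0.53 and 0.37, and for Lyz1 0.16 and 0.22. The correlations describe 6 points and carry no test, and the part of array spread in them was not tested. The median variance between replicates of the 31 genes was 0.281 in tumours, 0.0418 in primary and 0.00621 in transformed MEFs, against 0.0947, 0.0196 and 0.0166 over all genes.

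Genes outside the lists that ran most like the mean of the 31 were ranked by Pearson's r over 12 culture replicates and 6 recipients, among 13740 genes. They were Slc15a3 (0.995), P2ry6 (0.992), F13a1 (0.992), Nckap1l, Was, Ptpn6, Cyth4, Fyb, Vav1 and LOC218617 (0.988). All 10 were lower in transformed MEFs than at the other stages, as Slc15a3 was with 6.11 in null and 6.24 in wildtype cells, against 9.09 in null and 9.33 in wildtype primary MEFs. Over the 6 recipients alone the order was Alox5ap (0.993), Hk3, Was, 4933434E20Rik, Mgl2, Tlr2, E030034J16RIK, Pik3cg, Tbc1d7 and LOC100046087 (0.985). Was is in both rankings. The 18 points share chips and stages, and the 6 recipients share chips.

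The ligands through which macrophages grow and are drawn in did not follow the course of the markers. Of 8 measured ligand genes 6 were called higher and 1 lower in transformed MEFs than in primary MEFs in each genotype. Of all genes 28.7% were called higher and 25.8% lower in null, and 26.4% higher and 25.6% lower in wildtype. Csf1 read 10.05, 10.12 and 10.33 in null transformed MEFs, against 9.23, 9.43 and 9.15 in null primary MEFs, a rise of 0.9 ± 0.11. In wildtype the rise was 1.17 ± 0.11, while Csf1r fell to background. The monocyte chemokines Ccl2 (1.08 ± 0.22 in null and 2.16 ± 0.22 in wildtype) and Ccl7 (1.04 ± 0.14 and 1.68 ± 0.14) were also higher in transformed than in primary MEFs, and lower in tumours than in transformed MEFs (-1.89 ± 0.39 and -1.6 ± 0.39 for Ccl2). Il34 read 8.89, 8.38 and 8.57 in null and 9.47, 8.38 and 8.72 in wildtype tumours, 1.63 ± 0.27 and 2.13 ± 0.27 above transformed MEFs. Cxcl12, a chemokine of stromal cells, fell by 2.93 ± 0.18 and 2.75 ± 0.18 on transformation and by a further 2.23 ± 0.28 and 2.43 ± 0.28 in tumours. Of the 6 measured receptors of the recruitment list 4 were lower in transformed than in primary MEFs in each genotype. All 6 were higher in tumours than in transformed MEFs in both genotypes, among them Cxcr4, Csf2ra and Csf2rb. In that comparison 22.3% of all genes were higher in null and 19.2% in wildtype. Csf2rb and Csf2rb2 were above background on no culture array. Being kept through tumours, they had to be higher there, so the count describes the kept genes only.

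Other macrophage genes were also followed. Of 4 measured phagocyte oxidase genes 4 fell on transformation in wildtype and 3 in null cells. In tumours 3 rose over transformed MEFs in both genotypes, led by Ncf4 (at least 15.6-fold in null and at least 19.9-fold in wildtype). Among all genes 25.8% in null and 25.6% in wildtype were lower on transformation, and 22.3% and 19.2% higher in tumours. Genes kept only through the stages where they were high had to differ, so this count and the next describe the kept genes. The resident macrophage list had 5 measured genes, of which 3 were called higher in tumours than in transformed MEFs in each genotype: Folr2, Vsig4 and Mertk. Mertk had not fallen on transformation, averaging 9.2 in null and 9.24 in wildtype transformed MEFs, against 8.82 and 9.05 in primary MEFs. Gas6 averaged 9.63 in null and 9.96 in wildtype tumours, against 10.11 and 11.23 in transformed MEFs. Marco averaged 6.59 and 6.55, against 6.57 and 6.53. Timd4, Lyve1 and Cd5l had no kept probe. Il1b, the inflammatory cytokine, read 11.04, 12.45 and 11.6 in null and 11.44, 13.46 and 10.5 in wildtype tumours and stood at 5.94 to 6.17 in all 12 cultures. It was at least 42.3-fold higher in null and at least 45.6-fold higher in wildtype tumours than in primary MEFs. Arg1, arginase of macrophages and other cells, was higher in tumours than in transformed MEFs by 2.32 ± 0.54 in null and 2.99 ± 0.54 in wildtype.

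Several genes of antigen presentation were near background in primary MEFs and high in tumours. H2-DMa was above background on all culture arrays, and H2-Aa averaged only 6.35 in null and 6.59 in wildtype tumours. Cd74, the invariant chain of MHC class II, read 13.58, 14.19 and 12.84 in null and 13.75, 13.99 and 13.66 in wildtype tumours. Primary MEFs read 6.72, 6.52 and 7.27 in null and 6.71, 6.79 and 6.42 in wildtype cultures, near background. Cd74 was 6.7 ± 0.3 higher in null and 7.16 ± 0.3 higher in wildtype tumours than in primary MEFs. H2-Eb1 and H2-Ab1, chains of the class II molecules themselves, were at least 63.4-fold and at least 56.8-fold higher in null, and at least 80.8-fold and at least 79.7-fold higher in wildtype tumours. Of the 8 measured genes of this list 7 were called higher in null and 8 in wildtype tumours than in primary MEFs. The share of all genes so called was 27.8% in null and 25.6% in wildtype. H2-Aa, H2-Ab1, H2-Eb1 and Ciita were above background on no culture array. Being kept through tumours, they had to be higher there, so the count describes the kept genes only. Itgax, Flt3, Xcr1 and Clec9a, which mark dendritic cells, had no kept probe.

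Markers of other blood cells moved with the macrophage genes in part, and their share in the results was not tested. Mast cell genes fell on transformation, with 7 of 8 measured genes called lower in each genotype. In tumours 5 in null and 7 in wildtype were higher than in transformed MEFs. For all genes the shares were 25.8% in null and 25.6% in wildtype lower on transformation, and 22.3% and 19.2% higher in tumours. The summed intensity of the mast cell genes was 2335 to 3685 in null and 2183 to 2540 in wildtype primary MEFs. It was 565 to 592 and 553 to 609 in transformed MEFs, and 1710 to 4988 and 3675 to 8348 in tumours. Among neutrophil genes Mpo, the myeloperoxidase of immature granulocytes, which was singled out after its values were seen, read 9.03, 9.43 and 7.22 in null and 8.35, 8.27 and 8.34 in wildtype primary MEFs and was at background in transformed MEFs and tumours. S100a9 and S100a8 were present in both primary MEFs and tumours. Of 11 T cell genes 2 were kept, Cd8b1 and Lck, while Cd3d, Cd3e, Cd3g and Cd8a were detected on no array and Cd4 on 1. Of 8 B cell genes Cd79b and Fcrla were kept, and Ms4a1 was detected on no array. The cytotoxic genes Prf1 and Klrd1 rose in tumours over transformed MEFs by 3.45 ± 0.32 and 1.51 ± 0.37 in null and by 3.29 ± 0.32 and 2.03 ± 0.37 in wildtype, while Ncr1, which defines natural killer cells, was detected on no array. Erythroid genes were called higher in tumours than in transformed MEFs for all 5 measured, in both genotypes. Alas2 was above background in tumours alone. Genes of these lists kept only through the stage where they were high had to differ, so their counts describe the kept genes.

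Of 9 measured endothelial genes 7 in null and 8 in wildtype were lower in transformed than in primary MEFs, and 6 in null and 7 in wildtype were higher in tumours than in transformed MEFs. In each genotype 1 was higher on transformation, and in wildtype 1 was lower in tumours than in transformed MEFs. For these and the next lists, 25.8% of all genes in null and 25.6% in wildtype were lower on transformation, and 28.7% and 26.4% higher. In tumours 22.3% and 19.2% of all genes were higher than in transformed MEFs, and 22.5% and 19.6% lower. Keratinocyte genes fell on transformation in 7 of 7 measured genes and skeletal muscle genes in 6 of 6, in both genotypes. Genes detected only in primary MEFs or tumours had to be lower in cells at background. The endothelial, keratinocyte and skeletal muscle counts thus describe the kept genes only. Keratinocyte genes did not return in tumours, where none was called higher and 2 were lower than in transformed MEFs. Skeletal muscle genes were called higher for 3 of 6 in null and for none in wildtype tumours. Their mean was 8.06, 7.02 and 9.21 in null recipients 4, 5 and 6 and 7.46, 6.96 and 6.87 in wildtype recipients 1, 2 and 3, so recipient 6 was the highest. Fibroblast genes moved both ways on transformation, with 4 of 12 called higher and 6 lower in null and 5 higher and 6 lower in wildtype. The count called higher in null lies near the share of all genes, 28.7%. Of the same 12 genes 3 were called higher in null and none in wildtype tumours than in transformed MEFs. The null count lies near the share of all genes, 22.3%, where 19.2% of all genes were higher in wildtype. A difference of the genotype differences between tumours and transformed MEFs was called for no gene.

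**Figure D5:**
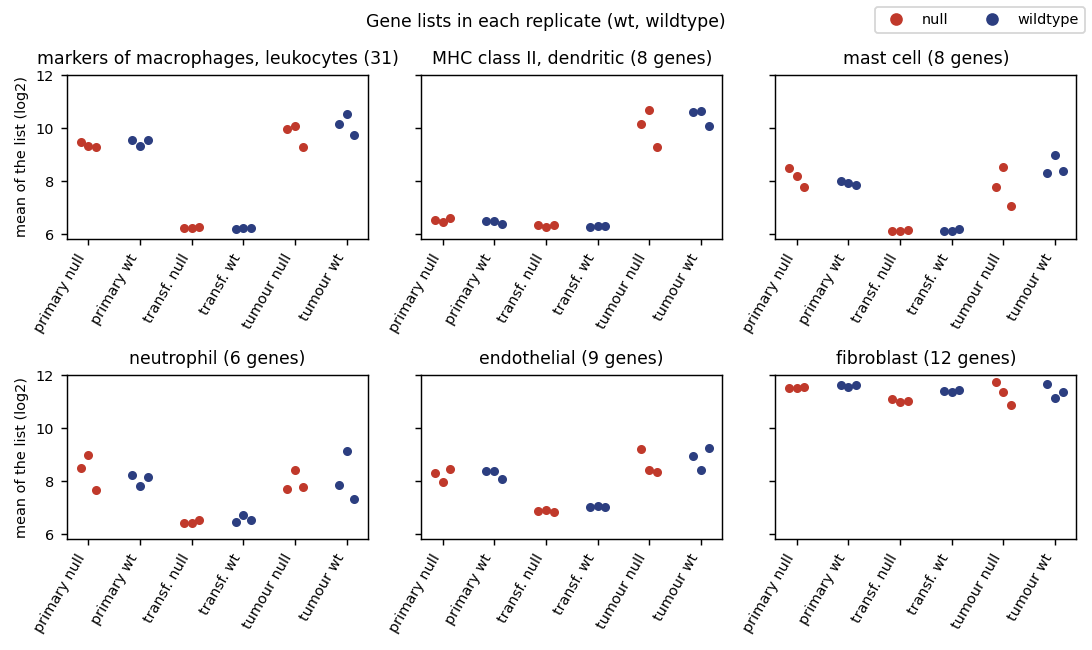
Mean log2 intensity of 6 gene lists (panels) in each replicate (points in replicate order, null red and wildtype blue; wt, wildtype; transf., transformed). The macrophage and leukocyte markers lie at 9.3 to 9.57 in primary MEFs and at 9.3 to 10.54 in tumours, while the MHC class II list lies at 6.38 to 6.6 in primary MEFs and at 9.29 to 10.7 in tumours.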

How the data were processed

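Illumina MouseWG-6 V2 bead arrays measured RNA from whole cultures and tumours. The authors deposited log2 values; per the submitters' processing notes they used BeadStudio, R 2.15.1 and limma 3.12.1. The deposited log2 values share one distribution within each stage and differ between stages, with medians of 6.07 for primary MEFs, 6.06 for transformed MEFs and 6.25 for tumours, so all 30 arrays were quantile-normalized together here; values as deposited were an alternative. The authors' deposited scanner intensity and detection p-value columns (480) match no sample label and were assigned to none; 32 of them served only to match probes and count detections. Probes detected on at least 3 arrays were kept (20254), with the probe of highest mean per gene (13870 genes). A tumour's replicate was the mean of its recipient's 3 arrays.

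Differences were tested with limma 3.58.1 in R 4.3.3, using the 4 groups of 2 stages or the 2 genotypes of a stage, with p-values adjusted over all genes by Benjamini-Hochberg and a threshold of 0.05. The ± after a difference is its SE. Where a group was above background on no array, the fold is a bound against that background. The script was tested on simulated data. Other probe filters, one fit of 6 groups, stage weights, single chips, a replicate block and leaving out each replicate were tried. Same-numbered replicates did not deviate together (r from -0.37 to 0.07). The number of arrays limits precision.

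Values per sample are given for the 3 genes with the smallest p per comparison and for Lyz1, Lyz2, Csf1r, Emr1, Mrc1 and Cd163, with further genes shown where a result turns on them. Of each other list up to 4 genes with the smallest p in wildtype tumours against transformed MEFs were eligible, plus Csf1 and Il34. The members and lists were chosen with earlier results of these data known.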

Additional observations from a re-analysis of the deposited data

Results flagged for a closer look

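Lyz1 was singled out because its genotype difference was not the same at both culture stages by a test of that difference. The null minus wildtype difference in transformed MEFs exceeded that in primary MEFs by 0.86 ± 0.18 on the log2 scale (limma adjusted p = 0.0242). Null and wildtype transformed MEFs were both at background for this probe, so the value carries the primary cultures' difference of -0.86.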

How the results depend on the processing

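The stage comparisons kept their counts of called markers within 1.5 times, and no called difference changed sign. The uncalled genotype shift in tumours, a median of -0.37, turned to 0.18 on the second chip alone. Leaving out 1 replicate gave 26 to 27 called markers in null and in wildtype for transformed against primary MEFs, 26 to 28 in null and 29 to 30 in wildtype for tumours against transformed MEFs, and 11 to 16 in null and 13 to 19 in wildtype for tumours against primary MEFs. For the difference between genotype differences in transformed and primary MEFs, the count was 0 with no filter on dim probes, 0 in one fit of all 6 groups and 0 to 1 without single replicates. Between genotypes it was 1 in primary MEFs in one fit of all 6 groups, with and without stage weights (Lyz1), and 1 in transformed MEFs with stage weights (Laptm5), with 0 to 1 without single replicates; the cause was not tested. With the replicate number as a replicate block, 27 markers in null and 26 in wildtype cells were called between stages and 0 between genotypes in primary and in transformed MEFs. Transformed samples of both genotypes correlated best with their own number, a hint from the data and not the design. Over all genes, 7 were called between genotypes in primary MEFs, against 15 in one fit, 44 with stage weights, 2 with the block and 2 to 4 without single replicates. In transformed MEFs 906 were called, against 243 to 552 without single replicates. In tumours 0 were called, against 19 in one fit, 4 with stage weights and 7 over the 18 arrays with chip block. The 327 genes of the difference between culture stages became 30 in one fit and 171 to 370 without single replicates. Each single-gene result or lower bound was counted under each alternative, so a gene counts many times. In 2211 of these the direction and side of the threshold held or, for bounds, the move was within the SD of the brighter group. A call was lost in 87 and gained in 4, and 32 bounds moved with the 99th percentile as background. Signal near background limits all values in transformed MEFs.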
